A study of Mus musculus with 12 samples.

Results

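Microglia of the adult mouse cerebellum were set against microglia of the striatum in 6 of the 12 libraries of a bulk RNA sequencing study of 4 brain regions. The 6 libraries were chosen by their region label alone, 3 from cerebellum and 3 from striatum, and the comparison ran over the 12217 expressed genes of the 23337 in the table. The mice of both groups were wild type, male and of strain C57BL/6N, their age was postnatal day 60, and the labels name no treatment. Each library held RNA of 3000 live cells sorted from tissue of 3 to 5 pooled mice in a gate for TMEM119 that was also CD45 low and CD11b positive. The labels do not say that the pools came from separate mice, so the p-values below are measured against a spread between libraries that may be technical.

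Microglia are the resident macrophages of the brain, where they survey the tissue, clear dying cells and debris, and respond to injury and infection. Their resting program depends on signalling through the CSF1 receptor and TGF-beta and on transcription factors such as PU.1 and SALL1. In the mouse, cerebellar microglia have been described as more immune-alert and more engaged in clearance, and striatal microglia as held in a quieter state with the help of the Polycomb PRC2 complex, which represses genes by methylating histone H3. The comparison addresses how far the resting state differs between these regions.

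The microglia label fitted the markers in both regions. The 10 microglia markers summed to 40680, 30690 and 33050 CPM (read counts scaled to a common library size) in cerebellum 1 to 3, against 37300, 37090 and 31370 CPM in striatum 1 to 3. All 10 were detected. Tmem119, the gene of the sorted protein (chromosome 5, 113793729 to 113800516, GRCm38), stood at 3241, 2043 and 1082 CPM in cerebellum and at 2204, 1505 and 1489 CPM in striatum, and the ranges overlapped. Its log2 difference, cerebellum minus striatum throughout, was 0.29 (SE 0.33), and 0.20 (SE 0.37) without striatum 2. Positions are on GRCm38, from the GENCODE M21 annotation, and are given where the gene symbol matched it.

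Striatum 2 stood apart from the other libraries. The total counts were 8862318, 12566066 and 8537139 in cerebellum 1 to 3, and 8574116, 6479839 and 12696248 in striatum 1 to 3. Of 10018 genes that averaged at least 50 counts over the study, 986 (9.84%) had no count in striatum 2, against 4 to 29 in each of the other 5 libraries. A count of 0 allows up to 3 counts in a library, and as the reads carry no molecular identifiers this floor covers counting error only. The Pearson correlation of log2 CPM between striatum 2 and the cerebellum libraries was 0.758 to 0.765, and with the other striatum libraries it was 0.755 and 0.771. Between the cerebellum libraries and striatum 1 and 3 the 6 correlations ran from 0.898 to 0.928, within cerebellum from 0.888 to 0.919, and between striatum 1 and 3 the value was 0.914. Counts, log2 differences and list medians are therefore given with and without striatum 2.

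Leaving striatum 2 aside, libraries of different regions lay as near to each other as libraries of the same region. The median absolute log2 difference over genes averaged 0.410 in the 6 pairs of a cerebellum library with striatum 1 or 3, against 0.512 in the 3 pairs within cerebellum and 0.379 between striatum 1 and 3. Between 15.3% and 21.8% of genes lay more than 2-fold apart in the pairs across regions, against 19.8% to 30.4% in the pairs within cerebellum and 18.6% between striatum 1 and 3. Cerebellum 1 and cerebellum 3 made the most distant of the pairs without striatum 2, with a median absolute difference of 0.651.

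**Figure D1:**
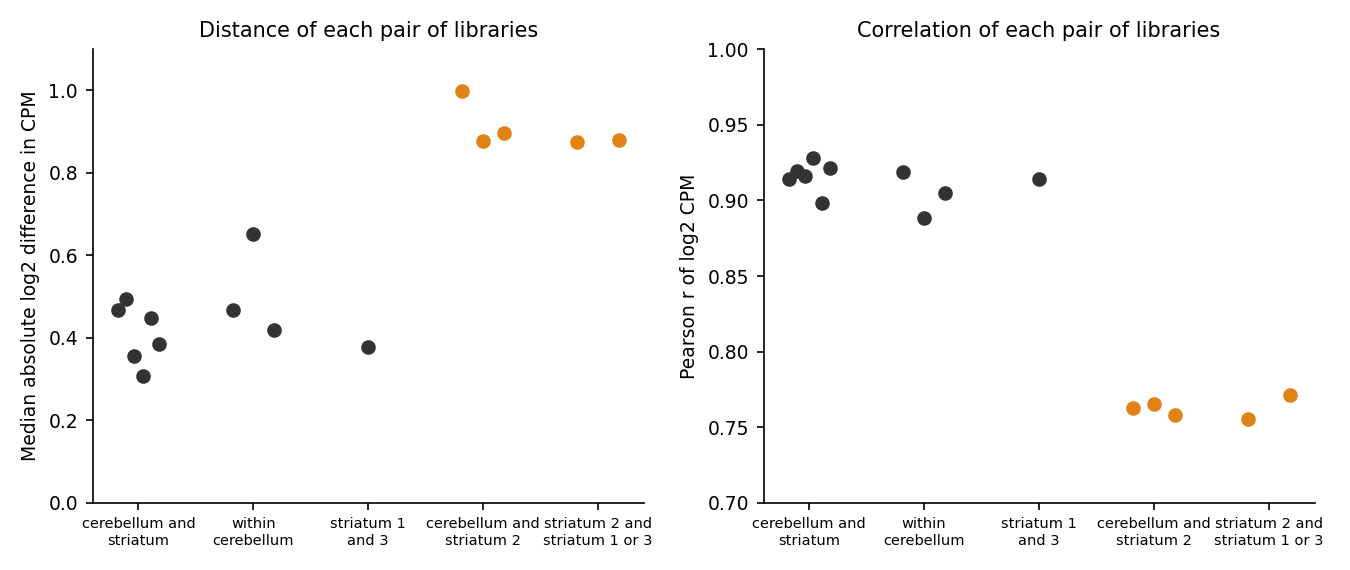
Distance of every pair among the 6 libraries, as the median absolute log2 difference in CPM over genes (left) and the Pearson correlation of log2 CPM (right, axis from 0.7). Each point is a pair of libraries, and orange points include striatum 2. The 6 pairs across regions without striatum 2 lie at 0.308 to 0.495, overlapping the pairs inside a region at 0.379 to 0.651, and all 5 pairs with striatum 2 lie at 0.876 or above.

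No gene passed the test between cerebellum and striatum microglia. With edgeR's quasi-likelihood test, 0 of 12217 genes (0%) had a Benjamini-Hochberg adjusted p under 0.05, and without striatum 2 the count was again 0 of 12217 (0%). The smallest edgeR adjusted p was 1 in both fits, so it is 1 for each gene named below. At an unadjusted p under 0.05, 124 genes were higher in cerebellum (1.01%) and 169 lower (1.38%), and without striatum 2 these were 101 (0.827%) and 87 (0.712%). Both directions together came to 555 genes without striatum 1 and 671 without striatum 3. Of the 293 genes below 0.05 with all libraries and the 188 without striatum 2, 88 were shared, which is 30.0% of the first set and 46.8% of the second. With limma-voom the count past the adjusted threshold was also 0, with 276 genes at an unadjusted p under 0.05, and DESeq2 passed 3 genes, of which 2 are described below. In 482 genes (3.95%) the 3 cerebellum libraries all lay above the 3 striatum libraries, and in 293 (2.4%) they all lay below. If the 6 values of a gene fell in random order, a share of 0.1 of genes would separate, both directions together. Against striatum 1 and 3 alone the counts were 767 (6.28%) and 759 (6.21%), over 5 libraries in place of 6, where separation is easier.

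For well expressed genes the libraries bounded the difference tightly. Of the 2485 genes over 100 CPM, 2016 (81.1%) had a 95% interval that lay within 1 log2 unit of 0, that is within a 2-fold difference, and without striatum 2 the number was 2226 (89.6%). A fitted difference of 1 log2 unit or more was seen in 5 of these genes with all libraries and in 0 without striatum 2. Genes were grouped by their mean over the 6 libraries in both fits, and most of these 5 passed 100 CPM only through striatum 2. Between 10 and 100 CPM 1902 of 6541 genes (29.1%) had such an interval, or 2645 (40.4%) without striatum 2. Under 10 CPM it held for 0 of 3191 genes, in either fit. The median standard error there was 1.47, or 1.42 without striatum 2, so the libraries did not bound 2-fold differences at that level. Over all genes the median log2 difference was 0.060 and its median standard error 0.47, or 0.017 and 0.42 without striatum 2.

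**Figure D2:**
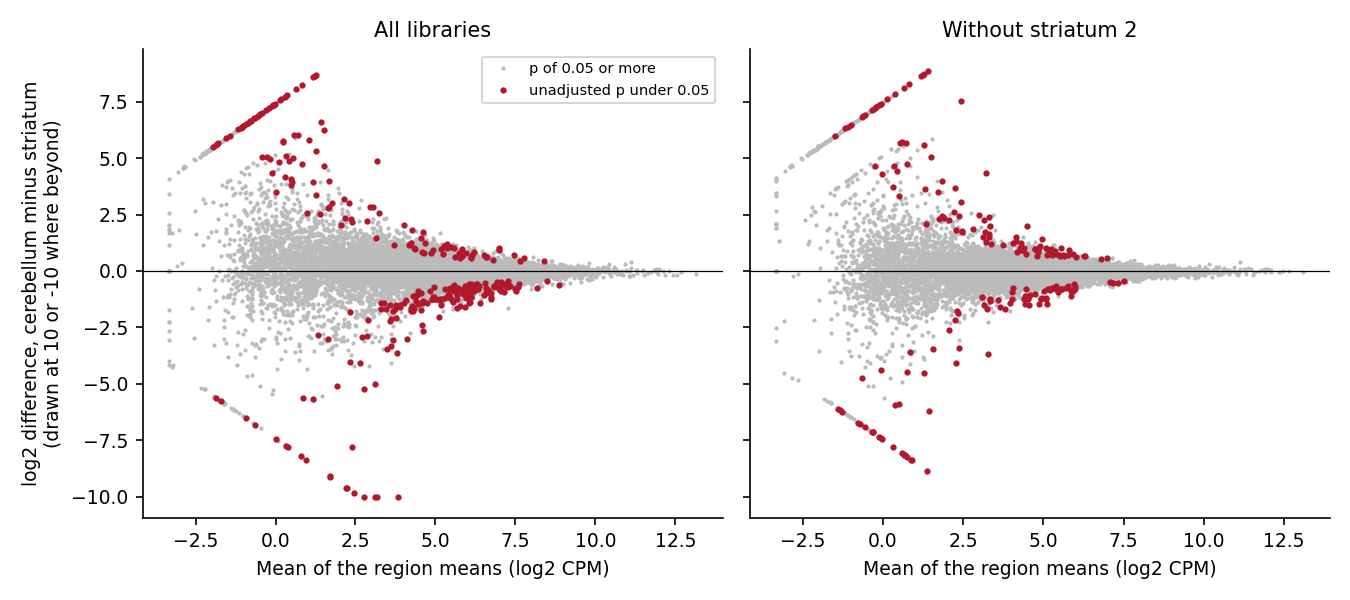
Log2 difference, cerebellum minus striatum, of each tested gene against the mean log2 CPM of both regions, with all libraries (left) and without striatum 2 (right). Red points have an unadjusted p under 0.05, 293 on the left and 188 on the right, and none passed the adjusted threshold. The spread narrows towards high expression, and the lines of points that fan out at the left are genes with no count in a region.

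Of the genes that averaged at least 10 CPM in a region and whose libraries did not overlap between regions, the 8 with the smallest p that were higher in cerebellum and 7 of the 8 that were lower are described with their values, and their separation follows from that choice. Wwc2 had the smallest p of the 7 lower genes. Wwc2 (chromosome 8, 47823959 to 47990924), a WW-domain protein of the Hippo pathway, had 10.7, 9.84 and 20 CPM in cerebellum and 26.7, 104 and 37.8 CPM in striatum. Striatum 2 stood far above the other striatum libraries, and the log2 difference was -2.05 (SE 0.51) with it, at an unadjusted p of 0.00161, and -1.26 (SE 0.40) without it, at 0.00692.

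The receptor C5ar1 and the lectin Lgals8 were the most abundant of the 7 lower genes. C5ar1 (chromosome 7, 16246743 to 16259540), the receptor for the complement fragment C5a, had 138, 127 and 132 CPM in cerebellum, against 190.2, 304 and 193 CPM in striatum. The cerebellum values were close together and below every striatum value, with a log2 difference of -0.79 (SE 0.25), or -0.54 (SE 0.23) without striatum 2. Lgals8 (chromosome 13, 12439415 to 12464944), which encodes galectin-8, a lectin that binds sugars on damaged vesicles, had 118, 114 and 105 CPM in cerebellum and 189, 222 and 130.5 CPM in striatum. Its lowest striatum library lay above all 3 cerebellum libraries, and the log2 difference was -0.68 (SE 0.21), or -0.51 (SE 0.22) without striatum 2. Anxa2 (chromosome 9, 69453620 to 69491795), a calcium-dependent membrane-binding annexin, had 2.32, 1.87 and 2.40 CPM in cerebellum and 2.72, 50.3 and 13.2 CPM in striatum. Striatum 1 lay barely above the cerebellum values, so that the log2 difference of -3.32 (SE 1.01), or -1.87 (SE 0.81) without striatum 2, rested on the other striatum libraries. Klhl26 (chromosome 8, 70450219 to 70476968), a kelch-like protein, had 16.4, 13.2 and 11.7 CPM in cerebellum, against 29.3, 44.6 and 29.9 CPM in striatum, and its log2 difference was -1.33 (SE 0.41), or -1.11 (SE 0.38) without striatum 2.

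In the last pair of these genes striatum 2 was far above the other libraries. Ctnnal1 (chromosome 4, 56810935 to 56865188), which encodes alpha-catulin, a relative of the catenins, had 4.05, 1.95 and 14.01 CPM in cerebellum and 21.8, 84.7 and 20.7 CPM in striatum. Cerebellum lay lower by a log2 difference of -2.67 (SE 0.79), or -1.68 (SE 0.68) without striatum 2. Pkia (chromosome 3, 7366669 to 7445366), an inhibitor of protein kinase A, had no count in any cerebellum library, and stood at 0.828, 83.1 and 1.58 CPM in striatum. Its striatum mean was 283-fold the floor of 3 counts over the cerebellum libraries, and the mean of striatum 1 and 3 was 11.98-fold that floor. These folds allow for counting error in cerebellum only, and 514 of the 541 striatum counts lay in striatum 2. The fitted log2 difference of Pkia was -11.25 (SE 2.93), with an interval of -17.7 to -4.78. Without striatum 2 it was -6.76 (SE 2.33), with an interval of -11.9 to -1.64. In the 169 genes lower in cerebellum at an unadjusted p under 0.05, striatum 2 was the highest striatum library in 152 (89.9%), against 34.9% of all tested genes. In the 124 genes higher in cerebellum it was the lowest striatum library in 56 (45.2%), beside 48.0% of all tested genes, and the highest in 13 (10.5%). Among the 1020 genes with a log2 difference of 1 or more it was the lowest in 583 (57.2%). In each of the 8 higher genes chosen with all libraries, described next, striatum 2 was the lowest striatum library or tied at 0. Each fitted difference of these 8 was smaller without it.

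Among the 8 genes higher in cerebellum, Maml1 and Ctnnbip1 had the smallest p. Maml1 (chromosome 11, 50255634 to 50292311), a coactivator of Notch target genes, had 5.79, 12.7 and 22.4 CPM in cerebellum, against 1.78, 0.808 and 3.09 CPM in striatum. The cerebellum libraries differed widely among themselves and all lay above the striatum libraries, with a log2 difference of 2.82 (SE 0.81), unadjusted p of 0.00412, and 2.47 (SE 0.76) with a p of 0.00623 without striatum 2. Ctnnbip1 (chromosome 4, 149518236 to 149566437), an inhibitor of the binding of beta-catenin to TCF factors, had 70.4, 75.5 and 57.5 CPM in cerebellum and 36.2, 34.3 and 47.1 CPM in striatum. Striatum 2 lay close to striatum 1 here, and the log2 difference was 0.79 (SE 0.24), or 0.70 (SE 0.26) without striatum 2.

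Phgdh, Aars2 and Hs2st1 encode enzymes. Phgdh (chromosome 3, 98313170 to 98339990), which catalyses the opening step of serine synthesis, had 328, 243 and 222 CPM in cerebellum and 167, 153 and 206 CPM in striatum. Cerebellum 3 and striatum 3 were close, and the log2 difference was 0.59 (SE 0.21), or 0.50 (SE 0.24) without striatum 2. Aars2 (chromosome 17, 45506841 to 45520843), the mitochondrial alanyl-tRNA synthetase, had 49.9, 61.2 and 49.5 CPM in cerebellum, against 24.1, 17.1 and 33.9 CPM in striatum. This gave a log2 difference of 1.09 (SE 0.36), or 0.88 (SE 0.35) without striatum 2. Hs2st1 (chromosome 3, 144429706 to 144570181), a sulfotransferase of heparan sulfate chains, had 60.8, 93.2 and 72.1 CPM in cerebellum and 41.1, 24.6 and 48.6 CPM in striatum, a log2 difference of 0.98 (SE 0.35), or 0.74 (SE 0.34) without striatum 2. In both genes striatum 2 was the lowest library and striatum 3 came nearest to cerebellum.

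Striatum 2 was also the lowest library for Pctp and Wdr75. Pctp (chromosome 11, 89982665 to 90002894), a transfer protein for phosphatidylcholine, had 52.8, 47.9 and 41.8 CPM in cerebellum, against 22.4, 13.4 and 36.3 CPM in striatum, and its log2 difference was 0.98 (SE 0.36), or 0.69 (SE 0.32) without striatum 2. Wdr75 (chromosome 1, 45795166 to 45823619), a nucleolar protein of ribosome production, had 40.2, 38.9 and 41.9 CPM in cerebellum and 22.8, 11.3 and 28.3 CPM in striatum. Cerebellum varied little here, and the log2 difference was 0.95 (SE 0.35), or 0.65 (SE 0.31) without striatum 2. Tmcc2 (chromosome 1, 132356315 to 132391281), a coiled-coil membrane protein, had 45.6, 1.95 and 5.15 CPM in cerebellum and 0, 0 and 1.66 CPM in striatum. The cerebellum mean of this gene was set by cerebellum 1, and its log2 difference was 4.86 (SE 1.73), or 4.33 (SE 1.67) without striatum 2 and 2.60 without cerebellum 1. Without striatum 3 it was fitted at 10.5 against striatum libraries with no count, a value that is no bound.

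**Figure D3:**
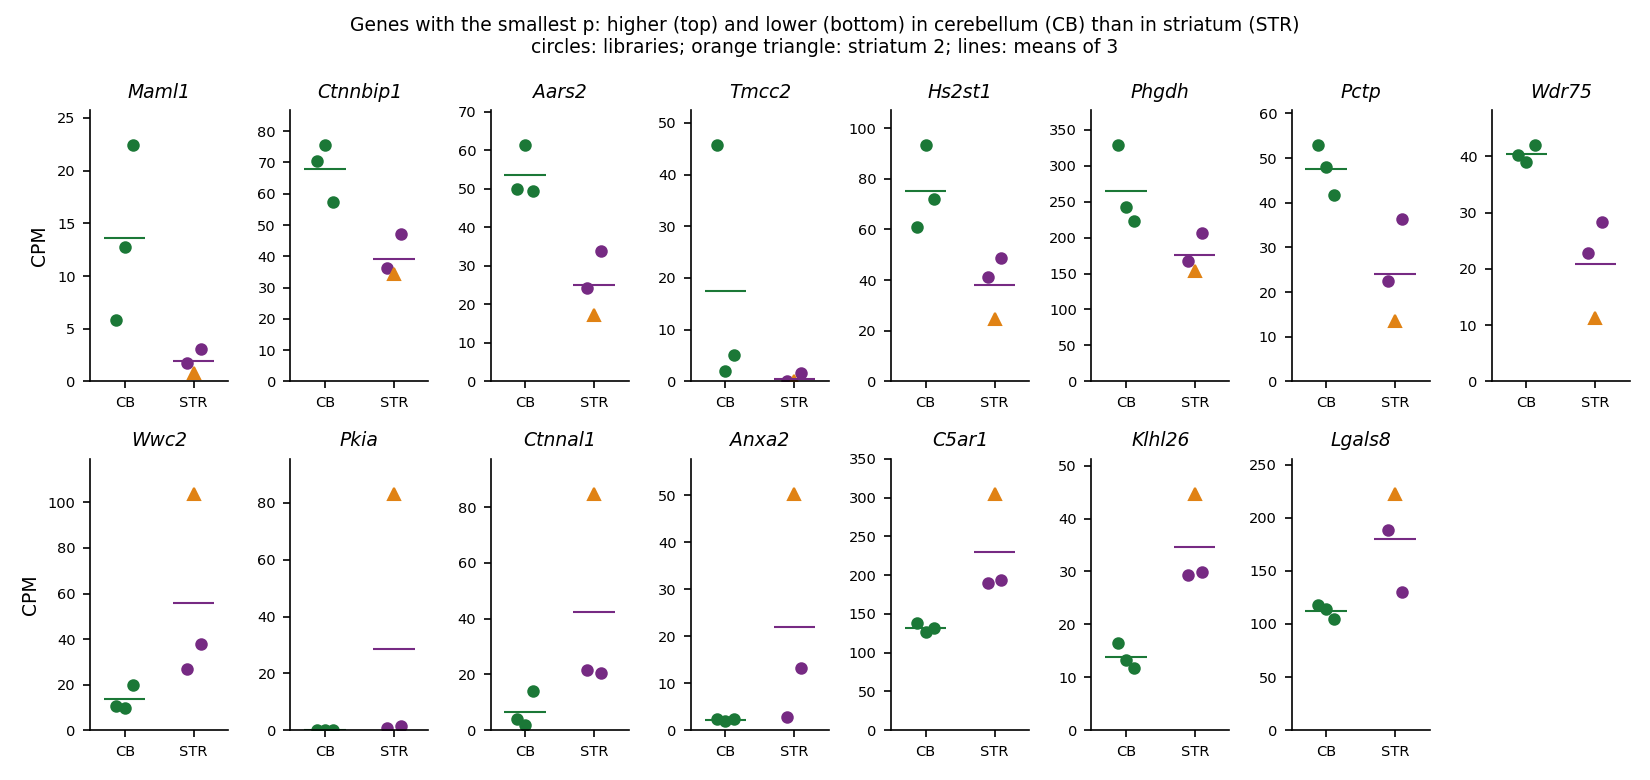
CPM of the 8 genes with the smallest p higher in cerebellum (CB, top) and 7 of the 8 lower in cerebellum (bottom), left in each panel, with striatum (STR) at its right. Points are libraries, the orange triangle is striatum 2 and lines are means of 3. In Ctnnbip1 striatum 2 lies close to striatum 1, whereas Pkia and Anxa2 have their highest value there.

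Ranking the genes without striatum 2 kept 3 of these 7 lower genes (Wwc2, Klhl26 and Pkia) and 1 of the 8 higher genes (Maml1). Casp9, Zfyve16, Rnf219 and Xylb joined the lower genes. Casp9 (chromosome 4, 141793612 to 141815976), the initiator caspase of the mitochondrial death pathway, had 35.7, 46.4 and 43.8 CPM in cerebellum and 86.98, 41.5 and 69.7 CPM in striatum. Striatum 2 lay inside the cerebellum range, and the log2 difference was -0.90 (SE 0.29) without it and -0.65 (SE 0.32) with it. Zfyve16 (chromosome 13, 92487108 to 92530868), an endosomal adaptor with a FYVE domain, had 15.9, 20.2 and 19.5 CPM in cerebellum, against 54.9, 23.1 and 47.3 CPM in striatum. The log2 difference was -1.47 (SE 0.47) without striatum 2 and -1.17 (SE 0.51) with it. Rnf219 (chromosome 14, 104477536 to 104522645), a RING-finger ubiquitin ligase, had 24.2, 9.06 and 20.6 CPM in cerebellum and 42.8, 41.7 and 41.5 CPM in striatum. Its values were nearly equal in the 3 striatum libraries, and the log2 difference was -1.24 (SE 0.41) without striatum 2 and -1.23 (SE 0.40) with it. Xylb (chromosome 9, 119357381 to 119393797), xylulokinase, had 10.3, 11.5 and 15.6 CPM in cerebellum and 30.4, 0 and 28.1 CPM in striatum, where striatum 2 had no count. Its log2 difference was -1.24 (SE 0.41) without striatum 2 and -0.65 (SE 1.08) with it.

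Hyou1, Cog6, Bcs1l and Fam188a were among those that joined the higher genes. Hyou1 (chromosome 9, 44379490 to 44392369), a chaperone of the endoplasmic reticulum, had 28.03, 31.95 and 47.3 CPM in cerebellum, against 6.27, 51.6 and 11.7 CPM in striatum. Striatum 1 and 3 lay below every cerebellum library and striatum 2 above them, with a log2 difference of 1.98 (SE 0.51) without striatum 2 and 0.63 (SE 0.67) with it. Cog6 (chromosome 3, 52981875 to 53017237), a subunit of the Golgi tethering complex COG, had 73.1, 77.8 and 69.6 CPM in cerebellum and 35.3, 133 and 42.3 CPM in striatum. The cerebellum values were close together, and the log2 difference was 0.92 (SE 0.29) without striatum 2 and 0.070 (SE 0.43) with it. Bcs1l (chromosome 1, 74588289 to 74592443), an assembly factor of respiratory complex III, had 29.7, 29.1 and 23.5 CPM in cerebellum and 11.5, 18.1 and 11.8 CPM in striatum. All 3 striatum libraries lay below cerebellum, and the log2 difference was 1.23 (SE 0.43) without striatum 2 and 0.99 (SE 0.44) with it. Fam188a, a deubiquitinase, had 46.2, 40.2 and 48.7 CPM in cerebellum and 15.6, 39.6 and 18.4 CPM in striatum, where striatum 2 came close to the lowest cerebellum library. The fitted log2 difference was 1.40 (SE 0.37) without striatum 2 and 0.88 (SE 0.42) with it.

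Dll1, Hhat and Meg3 joined them at lower levels. Dll1 (chromosome 17, 15367354 to 15376872), a Notch ligand, had 2.32, 9.69 and 14.3 CPM in cerebellum and 0.118, 42.5 and 1.19 CPM in striatum. The sign of its log2 difference turned with striatum 2, at 3.67 (SE 1.16) without that library and -0.73 (SE 1.38) with it. Hhat (chromosome 1, 192496711 to 192771223), which attaches palmitate to Hedgehog proteins, had 9.38, 18.3 and 5.51 CPM in cerebellum, against 3.55, 24.4 and 2.53 CPM in striatum, and a log2 difference of 1.86 (SE 0.66) without striatum 2 and 0.13 (SE 0.85) with it. Meg3 (chromosome 12, 109541001 to 109571726), an imprinted long noncoding RNA that is abundant in neurons, had 11.2, 30.4 and 8.62 CPM in cerebellum and 4.26, 11.2 and 2.06 CPM in striatum. Its log2 difference was 2.41 (SE 0.76) without striatum 2, 1.53 (SE 0.80) with it and 0.78 without cerebellum 2, and other neuron markers are given with it below.

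DESeq2, run as an alternative, passed 3 genes at an adjusted p under 0.05 with all libraries and 0 without striatum 2. Ppp2r2c and Mum1l1, described here, had no count in any cerebellum library. Ppp2r2c (chromosome 5, 36868513 to 36955078), a regulatory subunit of protein phosphatase 2A, had 0, 27.97 and 0 CPM in striatum, so that its adjusted p of 1.84e-06 came from striatum 2 alone. Mum1l1 (chromosome X, 139210042 to 139238335) had 5.33, 0 and 2.06 CPM in striatum, from 45, 0 and 26 counts, with an adjusted p of 2.81e-05. Its striatum mean was 24.4-fold the floor of 3 counts over the cerebellum libraries, and the mean of striatum 1 and 3 was 36.7-fold that floor. These folds allow for counting error in cerebellum only, not for the spread between libraries. In edgeR the log2 difference of Mum1l1 was -7.73 (SE 3.58), with an interval of -15.6 to 0.17 that included no difference. Without striatum 2 it was -8.36 (SE 3.41), with an interval of -15.9 to -0.87. DESeq2 with all libraries fitted -19.4, so the size of this difference against no count depends on the method and is no bound. DESeq2 gave Mum1l1 no adjusted p without striatum 2.

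Genes of microglial identity differed little between the regions. Of the 30 genes of the resting microglia list, 28 had a 95% interval within 1 log2 unit of 0, 0 passed the test, and the fitted differences ran from -0.25 to 0.32. Without striatum 2 the number was also 28, with differences from -0.26 to 0.23. Higher fitted values in cerebellum were found for 19 and lower for 11, with a median of 0.023, beside 6809 and 5400 and a median of 0.060 over all tested genes. Without striatum 2 the list had 20 and 10 and a median of 0.033, beside 6390 and 5812 and 0.017 over all genes, and without cerebellum 1 the median was -0.14. P2ry12, a purinergic receptor of ramified microglia, had 6406, 4553 and 4329.9 CPM in cerebellum and 6023, 4758 and 4436 CPM in striatum, with an interval of -0.35 to 0.37. Cx3cr1, the fractalkine receptor, had 3739.7, 2527 and 2056 CPM in cerebellum and 2289.6, 3348 and 2778 CPM in striatum, with an interval of -0.60 to 0.57. Csf1r, the receptor that keeps microglia alive, had 8496, 7767 and 9681 CPM in cerebellum and 9637, 10740.0 and 8284 CPM in striatum, with an interval of -0.46 to 0.18. Without striatum 2 these intervals were -0.46 to 0.38, -0.50 to 0.76 and -0.42 to 0.31. The regions overlapped in all 3 genes. Crybb1, a crystallin gene of maturing microglia, had 466, 385 and 319 CPM in cerebellum and 299.5, 274 and 364 CPM in striatum, and a log2 difference of 0.32 (SE 0.27), the highest of the list, or 0.23 (SE 0.30) without striatum 2 and 0.17 without cerebellum 1. Of 19 tested genes for lineage transcription factors 7 were higher and 12 lower, with a median of -0.023, or 9 and 10 and -0.011 without striatum 2, and 0 passed.

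Clearance genes, which bind and engulf dying cells, were evenly split. Of 40 such genes 34 were tested, 17 higher and 17 lower, with a median of -0.0060, or 18 and 16 with a median of 0.019 without striatum 2, and 0 passed. Scarb1, a scavenger receptor for lipoproteins, had 163, 119 and 169.7 CPM in cerebellum and 159, 147 and 253 CPM in striatum, with a log2 difference of -0.31 (SE 0.23), or -0.45 (SE 0.23) without striatum 2. Striatum 3 held the highest value, and without it the difference was -0.020, while without cerebellum 2 it was -0.16. Of the PRC2 complex and the demethylases that oppose it, 7 of 13 tested genes were higher and 6 lower, with a median of 0.049, or 6 and 7 and -0.058 without striatum 2, and 0 passed. Without striatum 3 this median was 0.20. Ezh1, a catalytic subunit of PRC2, had 44.3, 54.8 and 69.8 CPM in cerebellum, against 61.8, 147 and 88.4 CPM in striatum. Its log2 difference was -0.82 (SE 0.35), or -0.42 (SE 0.32) without striatum 2, which held the highest value. Kdm6b, a demethylase for the PRC2 mark, had 4.40, 12.7 and 3.83 CPM in cerebellum and 2.96, 1.13 and 3.40 CPM in striatum, low in all libraries but cerebellum 2, and a log2 difference of 1.47 (SE 0.91), or 1.12 (SE 0.88) without striatum 2 and 0.71 without cerebellum 2.

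Genes of the disease-associated state, which microglia take up around plaques and dying neurons, had a median that moved with striatum 2. With all libraries 8 of 27 tested genes were higher and 19 lower, with a median of -0.15, whereas without striatum 2 there were 12 and 15 and a median of -0.0077. Over the settings tried the median ran from -0.47, without cerebellum 3, to 0.059. Apoe, a lipid carrier, had 4091, 2956 and 6033 CPM in cerebellum and 3465, 5672 and 5483 CPM in striatum, with a log2 difference of -0.16 (SE 0.36), or -0.040 (SE 0.39) without striatum 2. Cd9, a tetraspanin, had 518, 329.8 and 593 CPM in cerebellum and 492, 735 and 530.2 CPM in striatum, with a log2 difference of -0.29 (SE 0.29), or -0.093 (SE 0.31) without striatum 2, -0.071 without cerebellum 2 and -0.47 without cerebellum 3. In both genes cerebellum 2 was the lowest of the 6 libraries and cerebellum 3 the highest of cerebellum.

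In the lists of antigen presentation and interferon genes 0 passed the test, and the medians of the 3 lists lay between 0.057 and 0.13. For presentation by MHC class I, 16 of 20 tested genes were higher and 4 lower, with a median of 0.12 beside 0.060 over all tested genes, or 15 and 5 and 0.14 without striatum 2 and a median of 0.053 without cerebellum 1. Tap2, a subunit of the peptide transporter that supplies class I molecules, had 165, 159 and 157 CPM in cerebellum, against 155, 94.2 and 121 CPM in striatum. The regions did not overlap, with a log2 difference of 0.37 (SE 0.22), or 0.21 (SE 0.22) without striatum 2 and 0.57 without striatum 1. Tap1, the partner of Tap2, had 127, 109 and 91.3 CPM in cerebellum and 108, 35.7 and 74.3 CPM in striatum, and a log2 difference of 0.59 (SE 0.40), or 0.26 (SE 0.35) without striatum 2 and 0.98 without striatum 1, with striatum 2 lowest in both. Of 28 tested genes of the type I interferon response 19 were higher and 9 lower, with a median of 0.13, or 18 and 10 and 0.12 without striatum 2. This median was 0.021 without cerebellum 1 and -0.029 over the members with a mean of at least 10 CPM. Rsad2, the antiviral protein viperin, had 11.01, 7.66 and 3.35 CPM in cerebellum and 0, 0.162 and 2.45 CPM in striatum, and the regions did not overlap at this low level. Its log2 difference was 3.01 (SE 1.78), or 2.54 (SE 1.82) without striatum 2, and 6.43 without striatum 3. Stat2, a transcription factor of interferon signalling, was on the other side, with 50.04, 82.3 and 79.4 CPM in cerebellum and 96.9, 183 and 103 CPM in striatum and a log2 difference of -0.86 (SE 0.34), or -0.51 (SE 0.33) without striatum 2. Of 9 tested MHC class II genes 6 were higher and 3 lower, with a median of 0.057, or 7 and 2 and 0.089 without striatum 2, and the median turned to -0.16 without cerebellum 1.

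Complement, cytokine and receptor lists had members on both sides. Of 14 tested complement genes 9 were higher and 5 lower with a median of 0.073, and without striatum 2 there were 5 and 9 with a median of -0.086. C5ar1, described above, was the member at an unadjusted p under 0.05 in both fits. Il6, an inflammatory cytokine, had 0.463, 3.67 and 2.87 CPM in cerebellum and 0, 0 and 0.317 CPM in striatum, low in all libraries, with a log2 difference of 4.17 (SE 1.55), or 3.71 (SE 1.66) without striatum 2. Without striatum 3 the striatum libraries had no count of Il6. Of 23 tested chemokine and cytokine ligands 13 were higher and 10 lower in both fits, with a median of 0.028, or 0.035 without striatum 2. Ccr1, a chemokine receptor, had 102, 129 and 54.6 CPM in cerebellum and 68.6, 29.7 and 60.2 CPM in striatum. Its ranges overlapped through cerebellum 3, and the log2 difference was 0.85 (SE 0.35), or 0.56 (SE 0.32) without striatum 2 and 0.56 without cerebellum 2. Of 30 tested cytokine receptors 13 were higher and 17 lower with a median of -0.061, or 10 and 20 and -0.037 without striatum 2. Of 22 tested Toll-like receptors and adaptors 10 were higher and 12 lower with a median of -0.056, or 9 and 13 and -0.11 without striatum 2. Tlr12, an endosomal sensor of parasite profilin, had 14.7, 16.7 and 11.6 CPM in cerebellum, against 25.6, 67.2 and 24.4 CPM in striatum. All striatum libraries lay above cerebellum, with a log2 difference of -1.44 (SE 0.56), or -0.80 (SE 0.49) without striatum 2. Irak2, a kinase below these receptors, had 64.4, 100.1 and 112 CPM in cerebellum and 101, 290.3 and 124 CPM in striatum, and a log2 difference of -0.89 (SE 0.36), or -0.29 (SE 0.27) without striatum 2.

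Most lysosomal genes had differences bounded within 2-fold. Of 40 tested lysosomal proteases and hydrolases, 36 had an interval within 1 log2 unit of 0, with 16 higher, 24 lower and a median of -0.045, or 37, 16 and 24 and a median of -0.011 without striatum 2. Neu1, a lysosomal sialidase, had 122, 112 and 126 CPM in cerebellum, against 142, 274 and 142 CPM in striatum. It lay lower in every cerebellum library, with a log2 difference of -0.63 (SE 0.26), or -0.25 (SE 0.21) without striatum 2. For the 33 genes of the lysosomal membrane and proton pump the interval lay within 1 log2 unit in 29, with 19 higher, 14 lower and a median of 0.041, or in 30, with 12, 21 and a median of -0.020 without striatum 2. Of 33 autophagy genes 13 were higher and 20 lower in both fits, with a median of -0.094, or -0.074 without striatum 2, and the median was below 0 in all settings tried, from -0.17 to -0.026. Ulk1, the kinase that starts autophagy, had 42.2, 60.9 and 71.7 CPM in cerebellum and 66.6, 149 and 93.9 CPM in striatum, and a log2 difference of -0.82 (SE 0.37), or -0.47 (SE 0.36) without striatum 2. Atg14, a subunit of the lipid kinase complex that acts after Ulk1, was on the other side, with 55.1, 48.2 and 45.8 CPM in cerebellum, against 22.6, 38.2 and 30.4 CPM in striatum. The regions did not overlap, and its log2 difference was 0.71 (SE 0.34), or 0.90 (SE 0.35) without striatum 2.

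The medians of the ribosomal protein and respiratory chain genes turned without cerebellum 1. Of 56 cytosolic ribosomal protein genes 44 were higher and 12 lower, with a median of 0.17, or 48 and 8 and 0.16 without striatum 2, and 0 passed. Their summed level was 5725, 4577 and 3604 CPM in cerebellum 1 to 3, against 4044, 4169 and 4256 CPM in striatum 1 to 3, so that striatum lay inside the range of cerebellum. Without cerebellum 1 the median became -0.018. Of 55 nuclear genes of oxidative phosphorylation 33 were higher and 22 lower, with a median of 0.027, or 43 and 12 and 0.088 without striatum 2. Their summed level was 8440, 6230 and 5077 CPM in cerebellum, against 6135, 6418 and 6423 CPM in striatum, and the median without cerebellum 1 was -0.18. Ribosomal protein genes have many near-identical pseudogenes, so their counts are uncertain. For cholesterol synthesis 14 of 24 tested genes were higher and 10 lower, with a median of 0.12, or 12 and 12 and -0.036 without striatum 2 and 0.42 without striatum 1. Of 23 genes of cholesterol efflux and lipid handling 15 were higher and 8 lower, with a median of 0.17, or 13 and 10 and 0.012 without striatum 2. That median was -0.27 without cerebellum 3 and 0.47 without striatum 3, so that single libraries turned its sign. Scap, which escorts the sterol-sensing factor SREBP, had 90.2, 109 and 83.6 CPM in cerebellum and 94.9, 252 and 139 CPM in striatum, and a log2 difference of -0.78 (SE 0.31), or -0.31 (SE 0.26) without striatum 2.

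The other lists had 0 genes past the test as well. Of 10 tested chemokine receptors 5 were higher in cerebellum and 5 lower with a median of 0.022, or 6 and 4 and 0.34 without striatum 2. That median was -0.020 without cerebellum 1 and -0.034 with the replicate block and no striatum 2. In either fit 2 of the 10 had an interval within 1 log2 unit of 0. NF-kB subunits and inhibitors had 10 higher and 7 lower of 17, or 8 and 9 without striatum 2, and the 5 Fc gamma receptors had 3 and 2, or 2 and 3. Neither of these lists kept a side on leaving out that library. Purinergic and adenosine genes had 7 higher and 8 lower of 15, or 8 and 7 without striatum 2, and genes of TGF-beta receptors and SMADs 9 and 10 of 19, or 8 and 11. Iron handling genes had 6 higher and 12 lower of 18, or 8 and 10 without striatum 2, and glycolysis genes 7 and 11 of 18, or 9 and 9. These 4 lists had medians between -0.069 and -0.00029 with all libraries, and between -0.080 and 0.013 without striatum 2. Genes of the MCM helicase and proliferation had 15 higher and 15 lower of 30, or 14 and 16 without striatum 2. Clock genes had 11 and 7 of 18, or 9 and 9, and inhibitory checkpoint receptors 10 and 7 of 17, or 6 and 11. The medians of these 3 lists and of the NF-kB and Fc receptor lists lay between -0.00074 and 0.11 with all libraries, and between -0.065 and -0.011 without striatum 2.

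Leaving out 1 library at a time turned the sign of the median in 26 of the 31 function lists. The other 5 kept it in the 7 fits. Their medians ran from 0.053 to 0.22 for MHC class I and from 0.021 to 0.29 for the interferon response. They ran from -0.25 to -0.056 for Toll-like receptors and adaptors, and from -0.17 to -0.026 for autophagy. For the sex-linked genes they ran from -0.77 to -0.26. These signs are taken against 0, while the median of all tested genes itself ran from 0.017, without striatum 2, to 0.117, without striatum 1. Without cerebellum 1 the interferon median of 0.0209 lay below the 0.0243 of all tested genes.

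Per2, a repressor of the circadian clock, had 4.87, 6.64 and 0 CPM in cerebellum, against 12.5, 71.5 and 9.03 CPM in striatum. It lay lower in every cerebellum library, with a log2 difference of -3.0 (SE 1.19), or -1.49 (SE 1.02) without striatum 2. Jun, an immediate early transcription factor, had 200.2, 123 and 167 CPM in cerebellum and 183, 312 and 167 CPM in striatum. The log2 difference was -0.43 (SE 0.26), or -0.11 (SE 0.23) without striatum 2 and -0.26 without cerebellum 2, and of 22 tested immediate early and stress genes 10 were higher and 12 lower with a median of -0.016, or 8 and 14 and -0.058 without striatum 2. Cd200r1, a receptor that restrains microglia, had 33.6, 27.97 and 16.8 CPM in cerebellum and 24.1, 141 and 29.7 CPM in striatum, and a log2 difference of -1.31 (SE 0.58), or -0.049 (SE 0.37) without striatum 2. Kdm5d, a histone demethylase gene of the Y chromosome, had 10.7, 15.8 and 56.1 CPM in cerebellum, against 63.4, 126 and 55.3 CPM in striatum, although the labels give the animals of both regions as male. Its log2 difference was -1.57 (SE 0.56), or -1.11 (SE 0.55) without striatum 2 and -2.62 without cerebellum 3. Ddx3y, also on the Y chromosome, had 94.4, 63.04 and 125 CPM in cerebellum and 117, 212 and 144 CPM in striatum, and a log2 difference of -0.74 (SE 0.32), or -0.48 (SE 0.32) without striatum 2. Xist, the RNA of the inactive X chromosome in females, had no count in any of the 6 libraries.

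**Figure D4:**
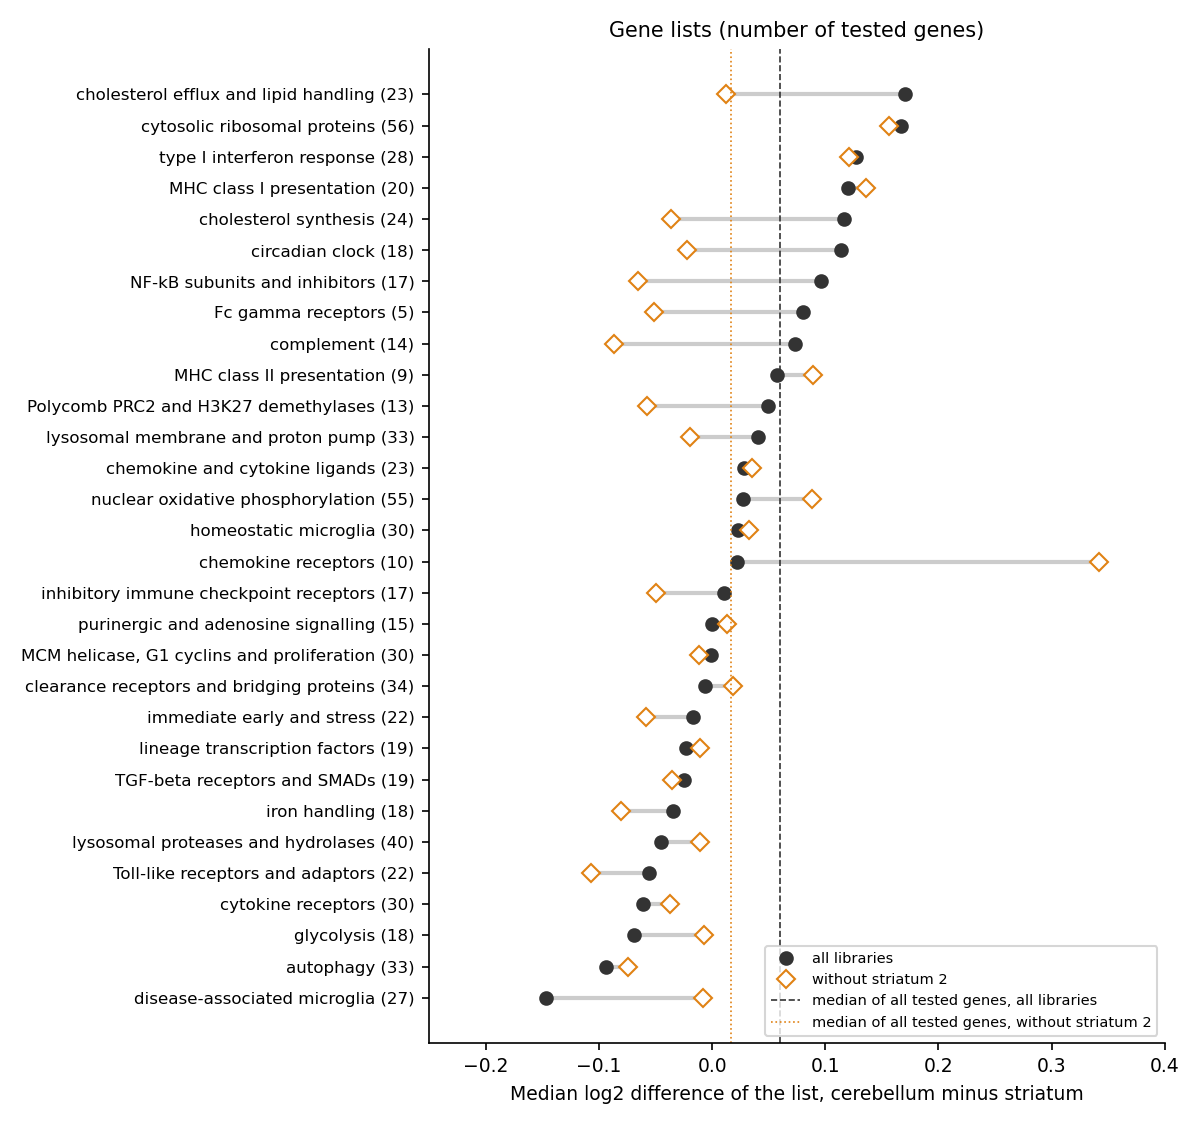
Median log2 difference, cerebellum minus striatum, of 30 gene lists with the number of tested genes in brackets. The sex-linked list is not drawn. Of its 4 tested genes 1 was higher and 3 lower in both fits, with a median of -0.61, or -0.26 without striatum 2. Black circles use all libraries and orange diamonds leave out striatum 2. Dashed and dotted lines mark the medians of all tested genes, 0.060 and 0.017. The 10 chemokine receptors have a median of 0.34 without striatum 2 and, in a fit not drawn, of -0.020 without cerebellum 1. The disease-associated list has -0.15 with striatum 2 and -0.0077 without it.

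Summed markers of other cells lay far below those of microglia in every library, and their largest differences followed single libraries. In bulk RNA, fewer cells of a type and less RNA per cell cannot be told apart. Border macrophage markers, which include Mrc1, summed to 256, 410 and 655 CPM in cerebellum, against 402, 750 and 477 CPM in striatum, with 5 of 7 tested markers lower in cerebellum with striatum 2 and 3 of 7 without it. Mrc1 itself had 229, 389.8 and 582 CPM in cerebellum and 394, 651 and 409.7 CPM in striatum, and a log2 difference of -0.28 (SE 0.40), or -0.011 (SE 0.42) without striatum 2. The 8 markers of choroid plexus and ependyma summed to 0.579, 35.5 and 296 CPM in cerebellum, against 47.6, 876 and 126 CPM in striatum. Ttr, the transthyretin gene of choroid plexus, made up most of this with 0.348, 21.3 and 203 CPM in cerebellum and 35.1, 579.9 and 87.2 CPM in striatum, and its log2 difference of -1.64 (SE 2.04) became 0.29 (SE 2.42) without striatum 2. All 6 tested markers of the list were lower in cerebellum with striatum 2, and 2 of 6 without it. The part of these cells in results whose highest value was in striatum 2 was not tested.

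Neuron markers typical of the dissected regions were near 0. Of 11 markers of cerebellar granule and Purkinje neurons 7, Cbln1 and Gabra6 included, had no count in any of the 6 libraries, and the list summed to at most 9.34 CPM in cerebellum and 13.5 CPM in striatum. Of 9 markers of striatal spiny neurons, 4 had no count, Drd2 and Penk included, and the sum was at most 3.95 CPM in cerebellum and 4.26 CPM in striatum. General neuron markers, Meg3 included, summed to 24.2, 40.1 and 25.9 CPM in cerebellum, against 11.8, 43.2 and 8.39 CPM in striatum. Cerebellum thus lay above striatum 1 and 3 and below striatum 2, and the part of these markers in the Meg3 result was not tested. Monocyte markers summed to 16.5, 13.9 and 8.86 CPM in cerebellum, against 15.0, 0 and 3.96 CPM in striatum. Ccr2, a monocyte chemokine receptor, had 5.44, 3.83 and 7.55 CPM in cerebellum and 1.07, 0 and 0.713 CPM in striatum. The regions did not overlap in Ccr2, and its log2 difference was 3.19 (SE 1.99), or 2.64 (SE 1.98) without striatum 2. In Plac8, the other tested monocyte marker, the regions overlapped. The log2 difference of Plac8 was 0.38 (SE 1.57) and turned to -0.21 (SE 1.29) without striatum 2. Astrocyte markers summed to 54.9 to 111 CPM in cerebellum and 52.1 to 83.5 CPM in striatum. Markers of oligodendrocytes and their precursors summed to 130 to 201 CPM in cerebellum and 114 to 201 CPM in striatum. Endothelial markers summed to 29.0 to 47.2 CPM in cerebellum and 18.4 to 47.0 CPM in striatum, and those of mural cells and fibroblasts to 1.04 to 5.23 CPM in cerebellum and 1.03 to 19.6 CPM in striatum. Lymphocyte markers reached 9.84 CPM in cerebellum and 33.3 CPM in striatum, red cell markers 11.1 CPM in cerebellum and 2.13 CPM in striatum, and neutrophil markers 0.116 CPM in cerebellum and 0.473 CPM in striatum.

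**Figure D5:**
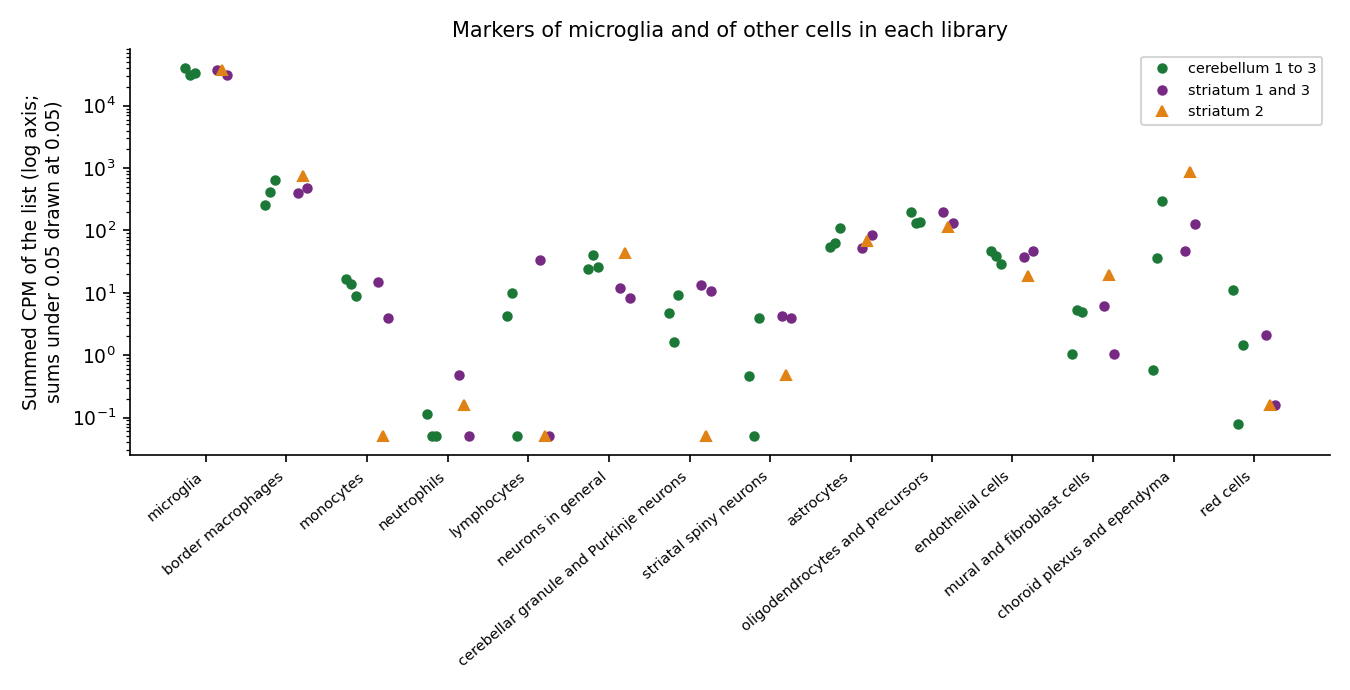
Summed CPM of the markers of microglia and of 13 other groups of cells in each library, on a log axis with sums under 0.05 drawn at 0.05. Cerebellum is green and left of striatum in each list, striatum 1 and 3 are purple and striatum 2 is the orange triangle. Microglia markers stand at 30690 to 40680 CPM in all 6 libraries, and the choroid plexus list spans 0.579 CPM in cerebellum 1 to 876 CPM in striatum 2.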

How the data were processed

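RNA was measured in 12 libraries, 3 for each of 4 regions, and 6 of them, cerebellum and striatum, are compared here. Per the labels' protocols, cDNA was made with the Smart-Seq v4 kit and Nextera XT libraries were sequenced on a NextSeq. The authors deposited whole-number read counts per gene symbol, without normalization. The submitters' processing notes name the mm10 build (GRCm38), HTSeq, Picard, STAR 2.5.3a and Trim Galore 0.4.3. Which annotation was used, and whether counting used strand, is not given in the sources used here. The kit does not mark strand, so genes that overlap in opposite directions share reads. Of 23337 symbols, 20937 matched GENCODE M21.

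The analysis used edgeR 4.0.16 in R 4.3.3: filterByExpr by region (minimum count 10, minimum total 15; 12217 genes), TMM scaling, a mean for each of the 4 regions over all 12 libraries, and the robust quasi-likelihood test with Benjamini-Hochberg adjustment over all tested genes (threshold 0.05). Fits without a library kept the same 12217 genes. CPM values are scaled by TMM, and correlations use log2 CPM with a prior count of 2. Total counts in the 6 libraries ran from 6479839 to 12696248. Counts of same-region libraries differed by far more than sampling noise (33.8 to 96.0 for chi-square over its degrees of freedom), and none was taken as a copy. Replicate numbers are not said to pair the libraries. Correlations of deviations were 0.034, -0.0056 and 0.068 for same-numbered libraries, and -0.066 to 0.018 for the others. With so few libraries these values cannot settle whether same-numbered pools shared mice. The edgeR fit with all libraries was run on counts simulated with known changes, to check the size of the fitted differences. No library was simulated to stand apart as striatum 2 does, so this does not bear on the number of genes called.

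Named genes were, in each direction, the 8 with the smallest p among those without overlap between regions, with all libraries and again without striatum 2. Left out of this choice were genes under 10 CPM on average in both regions, those of ribosomal proteins, RIKEN clones and predicted genes. Added to these were genes past the adjusted threshold in an alternative, and members of 45 gene lists. From a function list these were up to 3 members with the smallest p, and from a marker list the 2 with the highest level. Apoe, Csf1r, Cx3cr1, Ddx3y, P2ry12, Tmem119 and Xist were always kept. Some of these genes are not described in the text, and 1 of the 8 lower genes is not reported here. Other genes in the text were chosen after their values were seen. The comparison and the lists were chosen with earlier results of these data known. Alternatives were DESeq2 1.42.0, limma-voom (limma 3.58.1) with and without quality weights, other scalings and filters, a replicate block, fewer libraries, and each library left out in turn.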

Additional observations from a re-analysis of the deposited data

How the results depend on the processing

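The count of genes past an adjusted p of 0.05 was 0 in each alternative except DESeq2 with all libraries, which gave 3 (0 without striatum 2). At an unadjusted p under 0.05 the count was 293, and leaving out 1 library gave 188, without striatum 2, to 671, without striatum 3, with 555 without striatum 1. Other settings gave 133 with the 6 libraries alone, 178 with 5 libraries alone and no striatum 2, 145 with limma-voom without striatum 2, 504 with limma-voom quality weights, and 171 with a mean of at least 10 CPM required. The replicate block gave 238, and 175 without striatum 2, and changed no call. Genes without overlap numbered 775, against 1526 without striatum 2 and 499 with the stricter filter. Among the named genes these log2 differences changed sign. P2ry12, at 0.0069, ran from -0.19 to 0.15 over the fits that left out a library. It was -0.030 with 5 libraries alone, -0.023 with the replicate block and no striatum 2, -0.016 with DESeq2 and with RLE scaling, -0.045 with DESeq2 and -0.040 with limma-voom without striatum 2, -0.0024 with limma-voom, -0.091 with quality weights, -0.0040 without a filter and -0.0015 with the strict filter. Cx3cr1, at -0.016, ran from -0.29 to 0.16 on leaving out a library, and was 0.14 with 5 libraries alone, 0.12 with DESeq2 and 0.076 with limma-voom without striatum 2, 0.0070 with quality weights and 0.029 with upper quartile scaling. Dll1, at -0.73, ran from -1.31 to 3.67, and was 3.67 with 5 libraries alone, 4.0 with the replicate block, 3.70 with DESeq2 and 3.78 with limma-voom without striatum 2, 1.97 with limma-voom and 3.78 with quality weights. On leaving out a library Cog6 ran from -0.25 to 0.92, Hhat from -0.43 to 1.86, Tmem119 from -0.15 to 0.61, Apoe from -0.47 to 0.059, Mrc1 from -0.65 to 0.0019 and Ttr from -4.41 to 0.29. Ttr was 0.29 with 5 libraries alone and 0.30 with DESeq2 without striatum 2. With the replicate block and no striatum 2 Apoe was 0.038 and Nfkbia, an inhibitor of NF-kB that stood at 0.54, was -0.012. Xylb was 1.09 with limma-voom, and Ppp2r2c 0.081 with limma-voom without striatum 2. The cause of these changes was not tested. The strict filter left 70 of the 80 genes. Under 10 CPM the libraries did not bound 2-fold differences.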

Other observations

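Of the genes over 100 CPM, 5 had a fitted difference of 1 log2 unit or more with all libraries, and 0 had one without striatum 2. The level was the mean over the 6 libraries in both fits, striatum 2 included. Kif23, Wdhd1, Phkb and Ttr passed 100 CPM only through their high value in striatum 2, so their dependence on that library follows in part from this choice. Apart from Ttr, given above, they were genes of division, replication, glycogen use and the cytoskeleton, named here after their values were seen. Kif23, a kinesin of the dividing cell's midzone, had 84.2, 44.6 and 61.2 CPM in cerebellum and 96.9, 307 and 48.8 CPM in striatum, and a log2 difference of -1.25 (SE 0.56), or -0.21 (SE 0.42) without striatum 2. Wdhd1, a DNA replication factor, had 39.3, 90.4 and 68.5 CPM in cerebellum and 83.4, 231 and 128 CPM in striatum, and a log2 difference of -1.16 (SE 0.45), or -0.68 (SE 0.43) without striatum 2. Phkb, a regulatory subunit of phosphorylase kinase, had 37.3, 68.6 and 77.3 CPM in cerebellum and 64.3, 292 and 80.5 CPM in striatum, and a log2 difference of -1.25 (SE 0.60), or -0.25 (SE 0.49) without striatum 2. Myh9, a nonmuscle myosin heavy chain, had 119.5, 169 and 225 CPM in cerebellum, against 95.02, 25.9 and 131 CPM in striatum, and a log2 difference of 1.03 (SE 0.47), or 0.60 (SE 0.34) without striatum 2. In each of the 4 genes striatum 2 held the most extreme value of the 6 libraries.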
